A study of Mus musculus with 12 samples.

Results

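The ADAMTS proteases described here are 10 of the 17536 genes of the deposited expression table, found by their gene symbols. They are 6 proteoglycan-cleaving enzymes, called aggrecanases below (Adamts1, Adamts4, Adamts5, Adamts8, Adamts9 and Adamts15), 2 procollagen N-proteinases (Adamts2 and Adamts3) and 2 members of other roles (Adamts6 and Adamts12). RNA-seq was performed on 12 libraries of mouse chondrocytes from the superficial zone (SFZ) and the deep zone (DZ) of cartilage at 5 days of age, with 3 libraries in each of 4 groups. Control mice (R3-Cntl) were Runx3 fl/fl without Cre, and the mice labelled R3-cKO were Col2a1-Cre; Runx3 fl/fl, so that all 12 libraries carried floxed Runx3 and deletion was limited to cells in which the Col2a1 promoter had driven Cre. The zones were separated by the order in which enzymes released the cells, trypsin and a short collagenase digestion for SFZ and a longer digestion of the remaining tissue for DZ. Released cells were plated on fibronectin and grown as monolayers, and the time in culture before RNA extraction is not given in the sources used here. The libraries of a group came from separate mice, littermates across genotypes, and which SFZ and DZ libraries share a mouse is not given in the sources used here.

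ADAMTS proteases are secreted zinc metalloproteinases that bind extracellular matrix through thrombospondin repeats and are made as proenzymes that furin-like proteases activate. Aggrecanases cut the core protein of aggrecan, the proteoglycan that gives cartilage its resistance to compression, and of the related proteoglycan versican. Adamts5 is the main aggrecanase of mouse joint cartilage, and Timp3 is the principal tissue inhibitor of these enzymes. Procollagen N-proteinases instead remove the amino propeptide of fibrillar procollagens so that fibrils can form, and Adamts2 is the enzyme lost in dermatosparaxis, a disorder of fragile skin.

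Promoter sequence is shown for the N-proteinases, because Adamts2 was the member past the adjusted threshold between zones in R3-Cntl. That call was lost after size factors. With the replicate number as a block, Adamts2, Adamts5 and Adamts12 passed it in R3-cKO, as given below. RefSeq windows of 300 bases, from 250 before to 50 after a gene's start in build GRCm38.p6, matched 5 of the 10 members (Adamts1, Adamts2, Adamts3, Adamts9 and Adamts12), and Adamts4, Adamts5, Adamts6, Adamts8 and Adamts15 were not analysed here. The letters TGTGGT and TGCGGT, the core that Runx factors bind, were searched on both strands and are in capitals. The Adamts2 window lies at chr11:50601835-50602134 on the plus strand and the Adamts3 window at chr5:89883285-89883584 on the minus strand.
Adamts2: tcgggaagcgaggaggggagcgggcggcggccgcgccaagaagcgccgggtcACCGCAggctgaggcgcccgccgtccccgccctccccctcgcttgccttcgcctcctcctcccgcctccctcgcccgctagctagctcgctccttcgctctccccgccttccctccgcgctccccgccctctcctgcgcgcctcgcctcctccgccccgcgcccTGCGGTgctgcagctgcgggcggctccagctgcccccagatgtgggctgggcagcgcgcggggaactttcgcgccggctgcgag
Adamts3: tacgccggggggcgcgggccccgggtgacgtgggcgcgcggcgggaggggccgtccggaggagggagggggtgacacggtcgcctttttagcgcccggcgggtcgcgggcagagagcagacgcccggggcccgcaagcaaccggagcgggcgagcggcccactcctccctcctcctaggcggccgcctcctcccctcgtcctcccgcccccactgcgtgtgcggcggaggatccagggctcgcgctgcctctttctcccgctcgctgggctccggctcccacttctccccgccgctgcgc
The Adamts2 window held TGCGGT at 2 places. The first, at position -198 from the start, is on the opposite strand and reads ACCGCA as printed, and the second is at position -34. The other 4 member windows held neither word. At least one of these words was present in 7362 of 32851 windows of this length (22.4%), and a match of letters is a description of the sequence and not evidence of binding.

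Across libraries the values summed to between 392241 and 429213 FPKM (read pairs scaled by transcript length and library size), and the number of reads behind them is unknown. Runx3, the targeted gene, was not lower in the libraries labelled R3-cKO. The R3-Cntl libraries held 10.7, 5.98 and 6.65 FPKM of Runx3 in SFZ and 12.7, 12.7 and 7.66 FPKM in DZ. The R3-cKO libraries held 11.8, 9.07 and 3.42 FPKM in SFZ and 15.9, 12.7 and 8.14 FPKM in DZ. These values cover the whole gene, so reads outside the deleted part count towards them, and the genotype is given below as labelled. Chondrocyte markers were present in every library, with 10 genes summing to 4724 to 14831 FPKM in SFZ and 15377 to 35015 FPKM in DZ. Prg4, which encodes the lubricin of the articular surface, was 22.2, 8.38 and 7.13 FPKM in R3-Cntl SFZ and 1.39, 1.22 and 1.47 FPKM in R3-Cntl DZ. In R3-cKO it was 6.95, 2.47 and 2.13 FPKM in SFZ and 5.72, 1.32 and 2.14 FPKM in DZ, so there the zones overlapped in this marker. Other zone markers did not all go one way. In R3-Cntl, 7 superficial zone markers summed to 90.3 to 128 FPKM in SFZ and 37.9 to 85.8 FPKM in DZ. Gdf5 among them was higher in DZ (4.59, 7.69 and 8.58 against 2.99, 1.90 and 4.41 FPKM). There, 8 deep zone markers summed to 821 to 1131 FPKM in SFZ and 1550 to 3001 FPKM in DZ. Alpl among them overlapped between zones in R3-Cntl and was lower in DZ in R3-cKO. Markers of other cells also differed in level between zones. A list of 10 fibroblast and tendon markers summed to 2322 to 6294 FPKM in SFZ and 345 to 1801 FPKM in DZ. The highest SFZ sums were in R3-cKO replicate 3 (6294 FPKM) and R3-Cntl replicate 2 (4836 FPKM), and in DZ they were in replicate 3 of both genotypes. Macrophage markers (8 genes) summed to 3.66 to 41.3 FPKM in SFZ and 0.910 to 7.03 FPKM in DZ, with overlap. R3-Cntl SFZ replicate 2 also held 116 FPKM of 8 skeletal muscle markers against 6.5 to 21.6 FPKM in the other libraries.

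**Figure D1:**
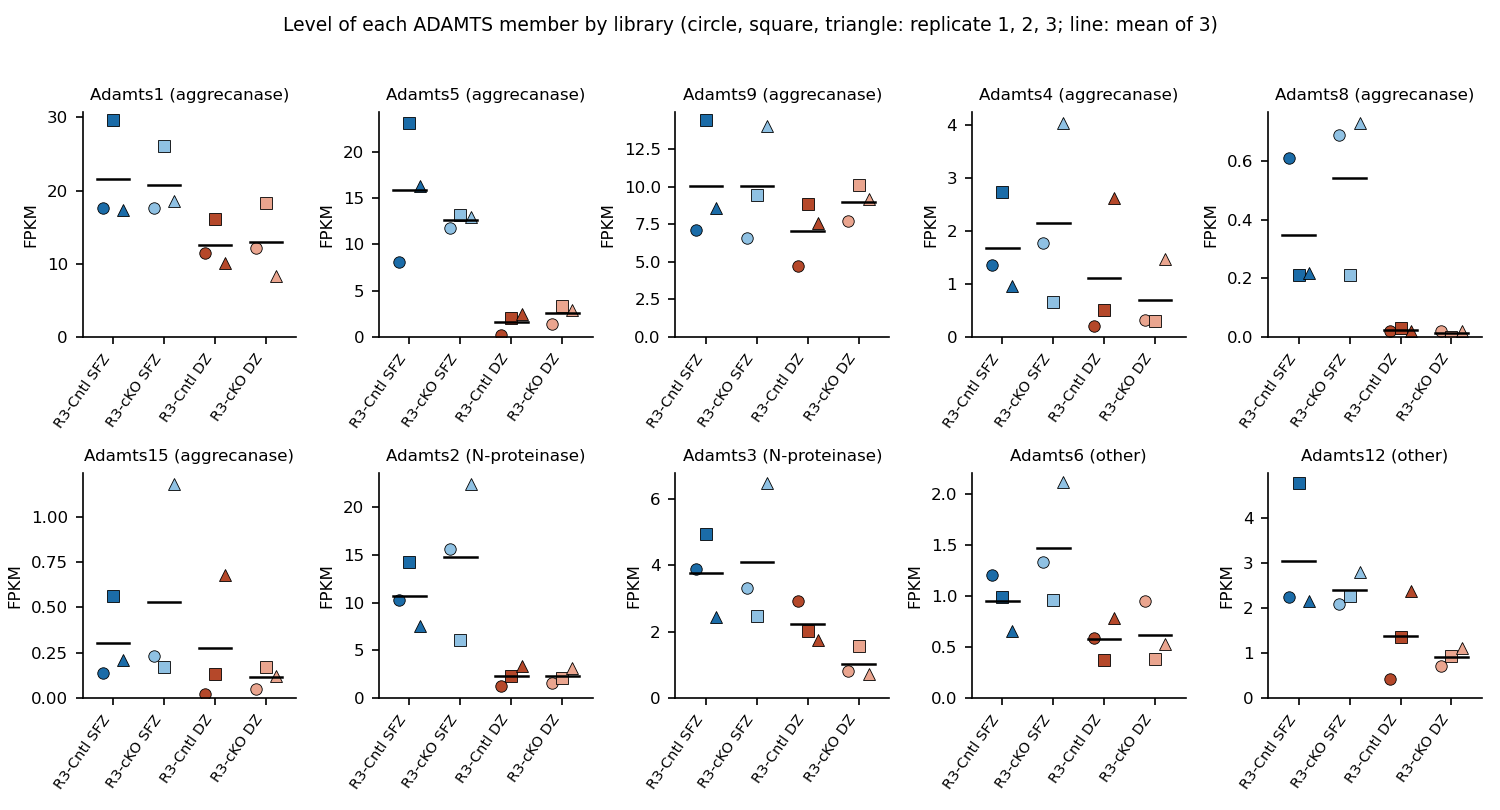
Level of each of the 10 ADAMTS members in FPKM (vertical axis, linear from 0) in each library, by zone and genotype. Symbols mark replicate numbers 1, 2 and 3 and the line is the mean of 3 libraries. Adamts2 and Adamts5 have all 6 SFZ libraries above all 6 DZ libraries, and the SFZ libraries of each group are widely spread for most members.

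The members spanned a wide range of levels. In R3-Cntl SFZ the order of mean levels, on the FPKM scale, was Adamts1 at 21.6 ± 6.99 FPKM (SD, n = 3), Adamts5 at 15.9 ± 7.51, Adamts2 at 10.7 ± 3.36, Adamts9 at 10.1 ± 3.89, Adamts3 at 3.76 ± 1.27, Adamts12 at 3.06 ± 1.49, Adamts4 at 1.68 ± 0.936, Adamts6 at 0.950 ± 0.272, Adamts8 at 0.347 ± 0.228 and Adamts15 at 0.303 ± 0.225 FPKM. In that order each neighbouring pair overlapped in its libraries except for 2 pairs. The lowest Adamts9 library (7.12 FPKM) was above the highest Adamts3 library (4.95 FPKM), and the lowest Adamts6 library (0.660 FPKM) was just above the highest Adamts8 library (0.610 FPKM). In R3-cKO SFZ the order was Adamts1 at 20.8 ± 4.58 FPKM, Adamts2 at 14.7 ± 8.25, Adamts5 at 12.7 ± 0.752, Adamts9 at 10.04 ± 3.77, Adamts3 at 4.09 ± 2.12, Adamts12 at 2.39 ± 0.364, Adamts4 at 2.15 ± 1.73, Adamts6 at 1.47 ± 0.587, Adamts8 at 0.543 ± 0.289 and Adamts15 at 0.527 ± 0.567 FPKM. In R3-Cntl DZ, Adamts1 (12.6 ± 3.19 FPKM) and Adamts9 (7.07 ± 2.11 FPKM) came first, and Adamts2, Adamts3, Adamts5, Adamts12 and Adamts4 lay between 2.32 and 1.11 FPKM with overlapping libraries. In R3-cKO DZ, Adamts1 (12.9 ± 5.03 FPKM) and Adamts9 (8.99 ± 1.21 FPKM) again came first, followed by Adamts5 (2.58 ± 1.04 FPKM) and Adamts2 (2.28 ± 0.807 FPKM), and the remaining 6 were at 1.02 FPKM or lower. Adamts8 and Adamts15 stayed under 1 FPKM in all libraries but 1, R3-cKO SFZ replicate 3, where Adamts15 was at 1.18 FPKM.

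The comparison of zones asks how DZ chondrocytes differ from SFZ chondrocytes of the same genotype. Before size factors, all 10 members had a lower mean in DZ than in SFZ, in R3-Cntl and again in the libraries labelled R3-cKO. That direction depends on the scaling between libraries for Adamts15 in R3-Cntl (0.303 FPKM in SFZ and 0.277 FPKM in DZ). The same holds for Adamts9 in R3-cKO, where the log2 difference was 0.02 after size factors. Of all genes tested, 72.0% in R3-Cntl and 65.4% in R3-cKO had a difference below 0, and 49.3% and 45.6% did after median-of-ratios size factors. The size of that difference varied among the members tested, from about 10-fold for Adamts5 in R3-Cntl to near 0 for Adamts9 in R3-cKO. Adamts2 and Adamts5 were the members whose SFZ and DZ libraries stood furthest apart among those that passed the filter, in both genotypes. Differences were tested on log2(FPKM + 1) with limma over every gene that reached 1 FPKM in 3 or more of the compared libraries, with Benjamini-Hochberg adjustment over all such genes. The filter passed 7 of the 10 members in each genotype and left out Adamts6, Adamts8 and Adamts15. A member that passed mainly through its SFZ libraries is favoured by such a filter. The whole table was also shifted. The median log2 difference of DZ against SFZ over 11336 genes was -0.17 in R3-Cntl and -0.09 in R3-cKO, and became 0.01 and 0.03 after size factors. Values after size factors are therefore given for Adamts2 and Adamts5, and for other tested genes named below where they change a call or a direction.

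In R3-Cntl, 1 of the 7 tested members, Adamts2, passed an adjusted p of 0.05 in limma, beside 1.24% of all genes tested. At an unadjusted p under 0.05 there were 3, all lower in DZ (Adamts1, Adamts2 and Adamts5), beside 22.4% of all genes called lower. After size factors 2 remained, Adamts2 and Adamts5, beside 11.6% of all genes. DZ libraries lay entirely below SFZ libraries for 4 of the 10 members (Adamts1, Adamts2, Adamts5 and Adamts8), and for 3 of the 7 tested, where 26.5% of all tested genes did so. In the libraries labelled R3-cKO, 0 members passed the adjusted threshold in limma, beside 0.0176% of all genes, and 4 passed the unadjusted one (Adamts2, Adamts3, Adamts5 and Adamts12), beside 11.1% of all genes called lower. The same 4 passed it after size factors, beside 6.33%. The replicate number was also used as a block, a pairing read from correlations in these same values and not given by the labels. A block chosen in that way favours smaller SEs. With it, 3 members passed the adjusted threshold (Adamts2, Adamts5 and Adamts12, with Adamts2 at a limma adjusted p of 0.0499), beside 3.11% of all genes. All tested members but Adamts9 passed the unadjusted one, beside 22.8% of all genes called lower. DZ lay below SFZ without overlap for 6 of the 10 members (Adamts2, Adamts3, Adamts5, Adamts6, Adamts8 and Adamts12), and for 4 of the 7 tested, where 16.8% of all tested genes did so. The 2 genotypes do not share libraries, and the difference between their zone effects was tested as the interaction given further on.

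Among the aggrecanases, Adamts5 showed the widest gap between zones of those tested. It was 8.13, 23.1 and 16.3 FPKM in R3-Cntl SFZ and 0.160, 2.10 and 2.45 FPKM in R3-Cntl DZ. It was 11.8, 13.2 and 13.0 FPKM in R3-cKO SFZ and 1.40, 3.38 and 2.96 FPKM in R3-cKO DZ. Every SFZ library was above every DZ library, and the lowest SFZ library and the lowest DZ library were both R3-Cntl replicate 1. By group means the SFZ level was 10.1 times the DZ level in R3-Cntl and 4.91 times in R3-cKO. On log2(FPKM + 1) the DZ minus SFZ difference in R3-Cntl was -2.75 (SE 0.51, 95% interval -3.97 to -1.53, limma adjusted p = 0.0566) and -2.62 after size factors. Its limma adjusted p was 0.0349, 0.252 and 0.155 without SFZ replicate 1, 2 or 3 and 0.156, 0.110 and 0.0749 without DZ replicate 1, 2 or 3, while the difference stayed between -3.14 and -2.26. In R3-cKO the difference was -1.98 (SE 0.24, 95% interval -2.56 to -1.40, limma adjusted p = 0.0736, and 0.0302 with the replicate block) and -1.87 after size factors. The gap was large against the spread between libraries in both genotypes and lay on either side of the adjusted threshold with the model used.

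Adamts1, an aggrecanase that also cuts versican and is best known from ovulation, was the most abundant member in all but 2 libraries, R3-cKO SFZ replicate 3 and R3-cKO DZ replicate 3, where Adamts2 and Adamts9 were higher. It was 17.7, 29.6 and 17.4 FPKM in R3-Cntl SFZ, 17.7, 26.1 and 18.7 FPKM in R3-cKO SFZ, 11.5, 16.2 and 10.1 FPKM in R3-Cntl DZ and 12.2, 18.3 and 8.30 FPKM in R3-cKO DZ. Replicate 2 was highest in each of the 4 groups. The zones did not overlap in R3-Cntl, and in R3-cKO the highest DZ library passed the lowest SFZ library. The DZ minus SFZ difference on log2(FPKM + 1) was -0.71 in R3-Cntl (SE 0.25, limma adjusted p = 0.138) and -0.69 in R3-cKO (SE 0.29, unadjusted p = 0.0545, limma adjusted p = 0.364). With the replicate block in R3-cKO the unadjusted p was 0.00589 and the limma adjusted p 0.0732. After size factors the R3-Cntl difference was -0.53, with an unadjusted p of 0.0605. In R3-cKO, where the replicate numbers were taken to pair the zones, DZ was lower than SFZ in 3 of 3 numbers. The R3-Cntl difference was -0.47 without SFZ replicate 2, and its unadjusted p rose above 0.05 without that library (0.0701), DZ replicate 1 (0.0749) or DZ replicate 3 (0.0884). The R3-cKO difference was -0.43 without DZ replicate 3 and -0.96 without DZ replicate 2, where it passed the unadjusted threshold.

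Adamts9, which cuts versican and aggrecan and has homologues that guide cell migration, was the member with the least difference between zones in R3-cKO. It was 7.12, 14.5 and 8.60 FPKM in R3-Cntl SFZ and 4.75, 8.87 and 7.60 FPKM in R3-Cntl DZ. Among R3-cKO libraries the values were 6.59, 9.47 and 14.1 FPKM in SFZ and 7.71, 10.1 and 9.16 FPKM in DZ. The zones overlapped in both genotypes. On log2(FPKM + 1) the difference was -0.43 in R3-Cntl (SE 0.30, limma adjusted p = 0.361) and -0.09 in R3-cKO (SE 0.26, limma adjusted p = 0.922), and after size factors these became -0.26 and 0.02. Without R3-Cntl SFZ replicate 2, the library at 14.5 FPKM, the R3-Cntl difference was -0.17.

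Adamts4, an aggrecanase that inflammatory cytokines induce in joint tissue, was low in both zones. It was 1.35, 2.74 and 0.960 FPKM in R3-Cntl SFZ, 1.77, 0.650 and 4.04 FPKM in R3-cKO SFZ, 0.200, 0.510 and 2.61 FPKM in R3-Cntl DZ and 0.320, 0.310 and 1.46 FPKM in R3-cKO DZ. Its highest DZ library in each genotype was replicate 3, and zones overlapped. The DZ minus SFZ difference on log2(FPKM + 1) was -0.47 (SE 0.45, limma adjusted p = 0.522) in R3-Cntl and -0.81 (SE 0.46, limma adjusted p = 0.492) in R3-cKO. With the replicate block in R3-cKO the unadjusted p was 0.00925 and the limma adjusted p 0.0855. The R3-Cntl value was -0.15 without DZ replicate 1, and the R3-cKO value -1.21 without SFZ replicate 2, where it passed the unadjusted threshold. Adamts8, a weak aggrecanase, was 0.210 to 0.730 FPKM in the 6 SFZ libraries and 0 to 0.0300 FPKM in the 6 DZ libraries. These ranges did not overlap, but Adamts8 was below the filter, and p was 0.1 in each genotype by an exact two-sided permutation test, the smallest value that 3 libraries against 3 allow. Adamts15, which cuts versican, ranged from 0.140 to 1.18 FPKM in SFZ and from 0.0200 to 0.680 FPKM in DZ, with overlap in both genotypes.

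**Figure D2:**
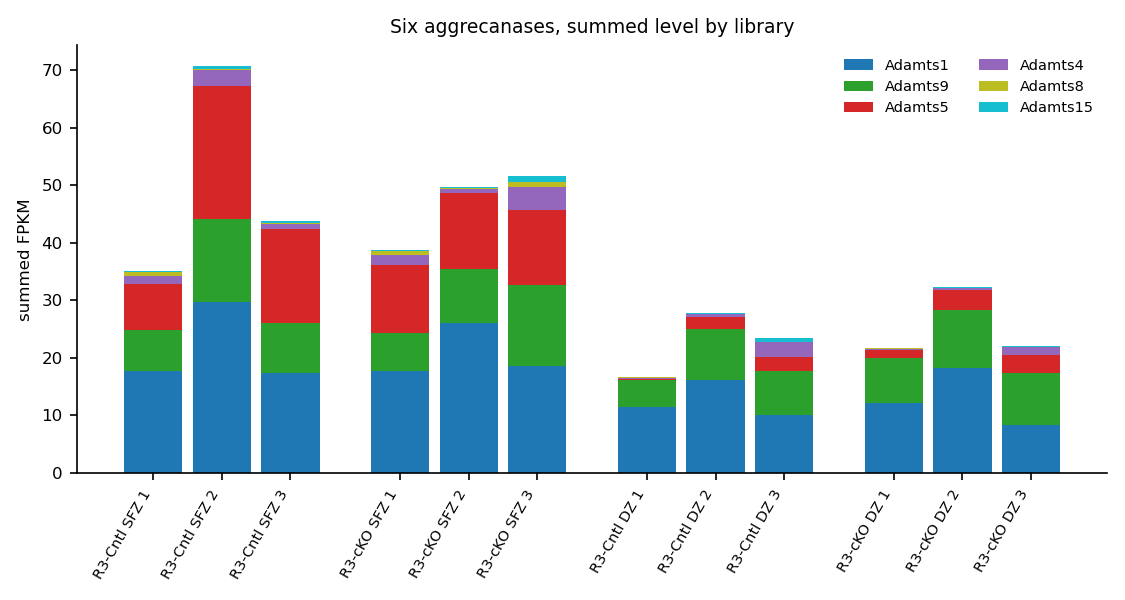
Summed FPKM of the 6 aggrecanases (vertical axis, from 0) in each of the 12 libraries, divided by gene. SFZ bars reach 35.0 to 70.7 FPKM and DZ bars 16.6 to 32.3 FPKM, and the Adamts5 segment is 23.2 to 37.3% of an SFZ bar and 0.962 to 13.4% of a DZ bar.

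The plot of summed aggrecanase levels sets the 6 genes on the FPKM scale, which is per length of transcript. The sum was 49.8 ± 18.6 FPKM (SD, n = 3) in R3-Cntl SFZ, 46.7 ± 6.97 in R3-cKO SFZ, 22.6 ± 5.64 in R3-Cntl DZ and 25.3 ± 6.00 FPKM in R3-cKO DZ. Adamts5 made up 23.2 to 37.3% of the sum in the 6 SFZ libraries and 0.962 to 13.4% in the 6 DZ libraries. Adamts1 and Adamts9 together made up 59.5 to 71.4% in SFZ and 75.4 to 97.6% in DZ. The ratio of Adamts1 to Adamts5, chosen after the values were seen, was 1.07 to 2.17 in SFZ libraries and 2.80 to 71.8 in DZ libraries. These shares follow from the levels above and were not tested.

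The procollagen N-proteinases summed to 14.4 ± 4.60 FPKM (SD, n = 3) in R3-Cntl SFZ, 18.8 ± 10.2 in R3-cKO SFZ, 4.54 ± 0.467 in R3-Cntl DZ and 3.31 ± 0.817 FPKM in R3-cKO DZ. Most of the SFZ sum was Adamts2. Adamts2 was 10.2, 14.2 and 7.54 FPKM in R3-Cntl SFZ and 1.30, 2.31 and 3.34 FPKM in R3-Cntl DZ. It was 15.7, 6.05 and 22.5 FPKM in R3-cKO SFZ and 1.57, 2.12 and 3.16 FPKM in R3-cKO DZ. Each SFZ library was above each DZ library, and in DZ replicate 1 was lowest and replicate 3 highest in both genotypes. By group means SFZ was 4.60 times DZ in R3-Cntl and 6.45 times DZ in R3-cKO. The DZ minus SFZ difference on log2(FPKM + 1) was -1.82 in R3-Cntl (SE 0.29, 95% interval -2.53 to -1.12, limma adjusted p = 0.0485) and -1.67 after size factors (limma adjusted p = 0.0606). The difference in R3-cKO was -2.12 (SE 0.45, 95% interval -3.22 to -1.02, limma adjusted p = 0.159, and 0.0499 with the replicate block) and -2.01 after size factors. The R3-Cntl call rested on small margins. Its limma adjusted p was 0.0470 without R3-Cntl SFZ replicate 1, but 0.228 and 0.108 without SFZ replicate 2 or 3, and 0.156, 0.108 and 0.0684 without DZ replicate 1, 2 or 3, while the difference itself stayed between -2.04 and -1.58.

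Adamts3, an N-proteinase that also activates the lymphatic growth factor Vegfc, lay lower. It was 3.90, 4.95 and 2.43 FPKM in R3-Cntl SFZ and 2.93, 2.01 and 1.74 FPKM in R3-Cntl DZ, with overlap. Among R3-cKO libraries the values were 3.33, 2.46 and 6.48 FPKM in SFZ and 0.800, 1.56 and 0.710 FPKM in DZ, without overlap. On log2(FPKM + 1) the DZ minus SFZ difference was -0.54 in R3-Cntl (SE 0.24, limma adjusted p = 0.201) and -1.28 in R3-cKO (SE 0.32, 95% interval -2.06 to -0.49, limma adjusted p = 0.187, and 0.0965 with the replicate block). The R3-Cntl difference passed the unadjusted threshold without SFZ replicate 3 (-0.76) or DZ replicate 1 (-0.69), and was -0.36 without SFZ replicate 2.

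Of the other members, Adamts12, which cleaves the cartilage protein Comp, was 2.24, 4.78 and 2.15 FPKM in R3-Cntl SFZ and 0.430, 1.35 and 2.38 FPKM in R3-Cntl DZ. It was 2.10, 2.28 and 2.80 FPKM in R3-cKO SFZ and 0.710, 0.930 and 1.11 FPKM in R3-cKO DZ. Replicate 3 of R3-Cntl DZ overlapped SFZ, and in R3-cKO the zones were separate. The difference was -0.79 on log2(FPKM + 1) in R3-Cntl (SE 0.37, limma adjusted p = 0.216) and -0.82 in R3-cKO (SE 0.16, limma adjusted p = 0.125, and 0.0439 with the replicate block). The R3-Cntl value ran from -0.47 without DZ replicate 1 to -1.09 without DZ replicate 3, where it passed the unadjusted threshold. Adamts6, which acts on matrix microfibrils, was 0.660 to 2.11 FPKM in SFZ and 0.370 to 0.950 FPKM in DZ. It was below the filter in both zone comparisons, and its zones were separate in R3-cKO alone, by 0.960 against 0.950 FPKM.

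**Figure D3:**
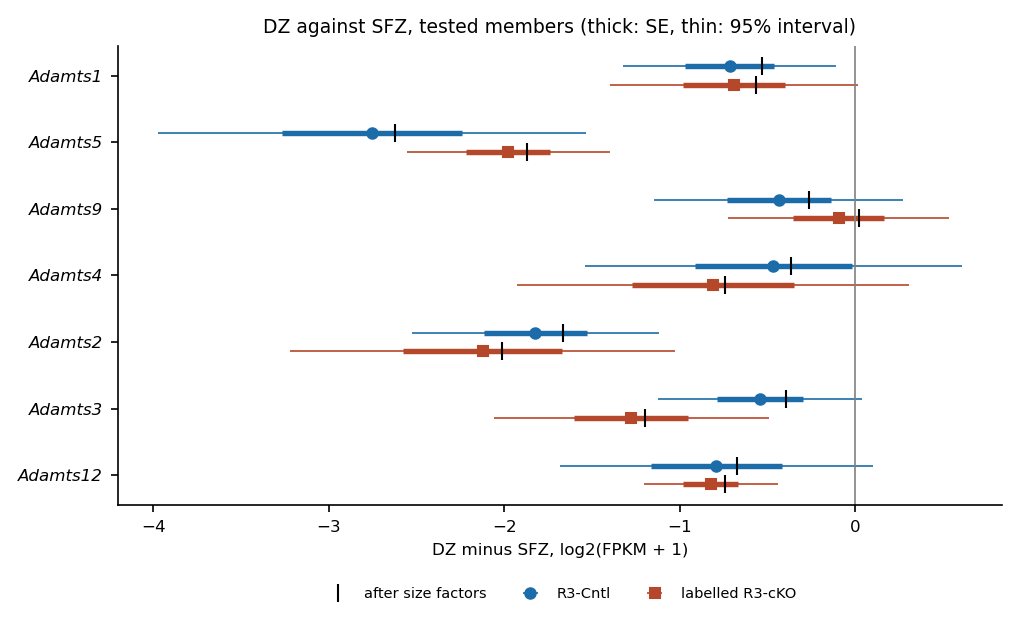
DZ minus SFZ difference in log2(FPKM + 1) (horizontal axis) for the 7 tested members in R3-Cntl (circles) and in the libraries labelled R3-cKO (squares), with the SE as thick bars and the 95% interval as thin bars. Short vertical marks give the difference after size factors. Adamts2 and Adamts5 lie furthest from 0 in both genotypes, and the mark for Adamts9 in R3-cKO is above 0.

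Members also differed in which library was highest, beyond zone and genotype. In SFZ, R3-cKO replicate 3 was highest for 6 of the 10 members (Adamts2, Adamts3, Adamts4, Adamts6, Adamts8 and Adamts15), and R3-Cntl replicate 2 was highest for the other 4 (Adamts1, Adamts5, Adamts9 and Adamts12). These were also the SFZ libraries with the highest fibroblast and tendon marker sums. Their chondrocyte marker sums were the lowest in SFZ, at 5460 FPKM in R3-cKO replicate 3 and 4724 FPKM in R3-Cntl replicate 2. In DZ, R3-Cntl replicate 3 was highest for Adamts2, Adamts4, Adamts12 and Adamts15, and R3-Cntl replicate 1 was lowest for 6 members. In R3-Cntl DZ the fibroblast and tendon marker sums were 392, 617 and 1801 FPKM, and in R3-cKO DZ they were 345, 593 and 1520 FPKM, with replicate 1 lowest and replicate 3 highest in both, as for Adamts2. Adamts5 had that order in R3-Cntl DZ but not in R3-cKO DZ (1.40, 3.38 and 2.96 FPKM). In R3-Cntl 7 of the 9 tested markers were lower in DZ at an unadjusted p under 0.05, where 22.4% of all genes were called lower. In R3-cKO Tnmd reached 1 FPKM in SFZ alone and was not counted, and of the remaining 8 tested markers 7 were lower on the same basis, where 11.1% of all genes were called lower. After size factors 5 of these 8 were called lower in R3-cKO, beside 6.33%, without Col3a1 and Dpt. Dcn, which encodes the matrix proteoglycan decorin, went the other way, with a difference of 1.41 in R3-Cntl (SE 0.33, limma adjusted p = 0.0753) and 0.97 in R3-cKO (SE 0.67). Pi16, a marker of fibroblasts of other tissues, was at 0 to 0.580 FPKM, and Tnmd, a marker of tendon, was 14.1 to 85.6 FPKM in SFZ and 0 to 1.14 FPKM in DZ. The part of these cells in the zone differences was not tested. In such bulk libraries, fewer cells of a type and less RNA per cell cannot be told apart.

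**Figure D4:**
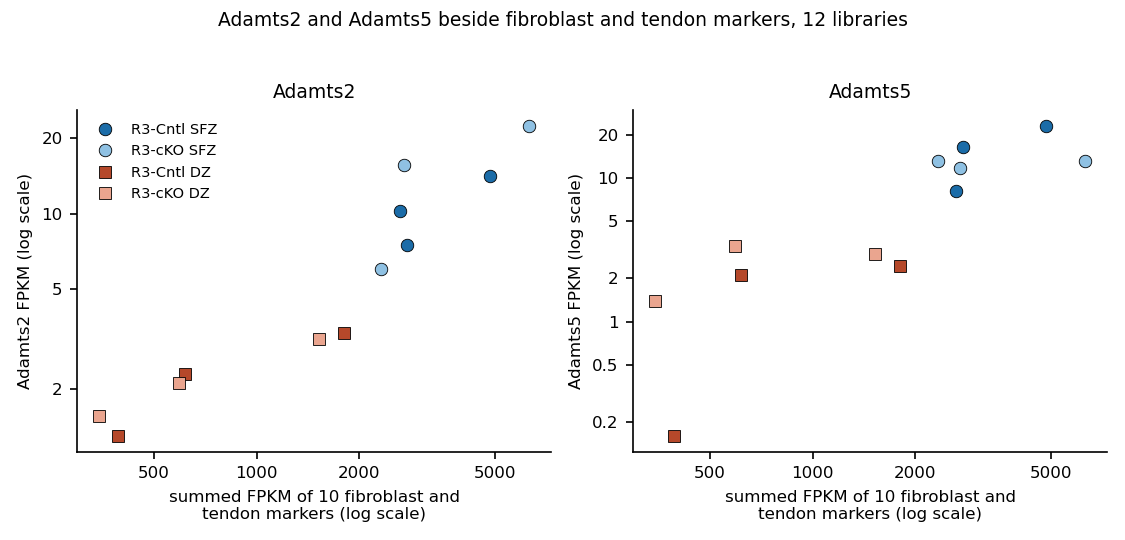
Level of Adamts2 (left) and Adamts5 (right) in FPKM against the summed FPKM of 10 fibroblast and tendon markers, both axes logarithmic, 1 point a library. SFZ circles lie to the upper right of DZ squares in both panels, and within DZ Adamts2 and the marker sum run from 1.30 FPKM at 392 FPKM to 3.34 FPKM at 1801 FPKM in R3-Cntl. Within R3-cKO DZ the highest Adamts5 library is not the one with the highest marker sum.

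The comparison of genotypes asks whether the libraries labelled R3-cKO differ from R3-Cntl within a zone. No ADAMTS member passed the adjusted threshold in either zone, and Adamts3 in DZ was the member whose groups were separate. In SFZ, the filter passed 8 of the 10 members, and limma called 0 of them at the adjusted threshold, as it called 0 (0.00%) of 11537 genes. At an unadjusted p under 0.05 it called 0 members and 34 genes (0.295%). All 10 members overlapped between genotypes in SFZ, where 2.40% of tested genes did not. The largest differences on log2(FPKM + 1), given as R3-cKO minus R3-Cntl, were 0.32 for Adamts6 (SE 0.23, 95% interval -0.23 to 0.87) and 0.31 for Adamts2 (SE 0.47, 95% interval -0.83 to 1.44). Without R3-cKO SFZ replicate 3, the difference for Adamts2 was -0.07, and without R3-cKO SFZ replicate 2 it was 0.80 and passed the unadjusted threshold. The difference for Adamts5 was -0.19 (SE 0.34, 95% interval -1.03 to 0.64, and -0.58 and past the unadjusted threshold without R3-Cntl SFZ replicate 1), for Adamts1 -0.03 (95% interval -0.64 to 0.58), for Adamts3 0.05 (95% interval -0.77 to 0.88) and for Adamts4 0.14 (95% interval -0.96 to 1.24). The intervals for Adamts9 (-0.81 to 0.81) and Adamts12 (-0.84 to 0.44) likewise covered 0. Of 8 deep zone markers, 6 had a lower and 2 a higher mean log2 level in R3-cKO SFZ. At an unadjusted p under 0.05, 3 were lower, Mmp13 (-1.16), Alpl (-0.92) and Pth1r (-0.47), beside 0.295% of all genes called. Prg4 was also lower on that basis (-1.45). The part of these marker differences in the member values was not tested.

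In DZ, 6 members passed the filter, and limma called 0 of them and 0 (0.00%) of 11091 genes at the adjusted threshold. At an unadjusted p under 0.05 it called 1 member, Adamts3, beside 3.64% of all genes. Adamts3 was 2.93, 2.01 and 1.74 FPKM in R3-Cntl DZ and 0.800, 1.56 and 0.710 FPKM in R3-cKO DZ. The 3 libraries labelled R3-cKO were below all 3 R3-Cntl libraries, which held for 2.78% of tested genes, and p was 0.1 by an exact two-sided permutation test, the smallest value possible here. The difference on log2(FPKM + 1) was -0.68 (SE 0.22, 95% interval -1.22 to -0.14, unadjusted p = 0.0204, limma adjusted p = 0.999), and -0.71 after size factors. It ranged from -0.86 to -0.53 when each library was left out, and its unadjusted p was under 0.05 in 3 of these 6 fits and 0.0644, 0.0641 and 0.0605 without R3-Cntl replicate 1, R3-cKO replicate 1 or R3-cKO replicate 3.

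The replicate numbers were taken to pair the DZ libraries of the 2 genotypes, from correlations in these same values, and were used as a block. With that block limma called 3 members at an unadjusted p under 0.05, beside 16.5% of all genes, and again 0 members and 0 genes at the adjusted threshold. They were Adamts3 (unadjusted p = 0.0157, limma adjusted p = 0.235), Adamts5 (difference 0.58, SE 0.19 with the block, unadjusted p = 0.0248, limma adjusted p = 0.254) and Adamts9 (difference 0.34, SE 0.11 with the block, unadjusted p = 0.0296, limma adjusted p = 0.264). Adamts3 was lower in R3-cKO in 3 of 3 numbers, and Adamts5 and Adamts9 were higher in 3 of 3. With the block and without the replicate 1 pair, which holds the R3-Cntl library at 0.160 FPKM of Adamts5, the differences were -0.46 for Adamts3, 0.35 for Adamts5 and 0.21 for Adamts9, and none of these 3 passed the unadjusted threshold (0.0528, 0.0654 and 0.112 in limma). In the model without the block, which keeps the R3-cKO library of that number, the Adamts5 and Adamts9 differences were 0.08 and 0.11 without R3-Cntl DZ replicate 1. Adamts1 and Adamts2 differed by 0.00 with 95% intervals of -0.71 to 0.70 and -0.68 to 0.69, and Adamts12 by -0.24 (95% interval -0.99 to 0.52). Without R3-Cntl DZ replicate 1 the Adamts12 difference was -0.56 and passed the unadjusted threshold, and with the block and without that pair it was -0.48 and also passed it. The pairs left without replicate 1 each set an R3-Cntl library with Y-linked transcripts against an R3-cKO library with almost none. The sums of 4 Y-linked genes were 16.8 and 17.0 FPKM against 0.01 and 0.03 FPKM.

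Markers also differed in level between genotypes in DZ. Of 10 chondrocyte markers 9 had a lower mean log2 level in R3-cKO, where 37.7% of all genes had a difference below 0. At an unadjusted p under 0.05 these were 2, beside 3.64% of all genes called, and 6 with the block, beside 16.5%. This list summed to 21785 to 35015 FPKM in R3-Cntl and 15377 to 27793 FPKM in R3-cKO. Of 8 deep zone markers 7 had a lower mean log2 level in R3-cKO. Of these, 2 passed an unadjusted p of 0.05 and 4 did with the block, beside the same shares of all genes. They summed to 1550 to 3001 FPKM in R3-Cntl and 1067 to 2375 FPKM in R3-cKO. Among them Alpl, the alkaline phosphatase of mineralizing cartilage, differed by -1.63 on log2(FPKM + 1) (SE 0.29, limma adjusted p = 0.999) and Pth1r, the receptor of parathyroid hormone-related protein, by -0.64 (SE 0.22, limma adjusted p = 0.999). Of 7 tested fibroblast and tendon markers 6 had a higher mean log2 level in R3-cKO, 0 passed an unadjusted p of 0.05 and 2 did with the block, Col3a1 (difference 0.44) and Scx (0.82), and Scx also passed it after size factors (limma unadjusted p = 0.0447). The sum of the list of 10, given above, was lower in R3-cKO in 3 of 3 numbers, but its genes did not move together. Dcn was 331, 258 and 549 FPKM in R3-Cntl DZ against 227, 207 and 543 FPKM in R3-cKO DZ. Col3a1 was higher instead, at 29.0, 99.6 and 259 FPKM against 45.2, 112 and 377 FPKM. Col1a1 was 24.4, 242 and 961 FPKM against 52.8, 244 and 576 FPKM. Of 4 tested superficial zone markers 3 had a higher mean log2 level, and with the block 1 was called, Tnc (difference 0.83). The list of 7 summed to 37.9, 85.8 and 75.8 FPKM in the R3-Cntl libraries against 105, 117 and 85.4 FPKM. Mural cell markers did not move one way. Of 8, 3 were tested, and Acta2, the actin of smooth muscle and of activated fibroblasts, was 47.7, 147 and 70.3 FPKM in R3-Cntl DZ and 302, 401 and 163 FPKM in R3-cKO DZ, without overlap. Cspg4 differed by -0.25 (SE 0.22, and 0.08 with the block, unadjusted p = 0.0289 with the block, limma adjusted p = 0.262) and Pdgfrb by -0.07 (SE 0.13). Without Acta2 the remaining 7 summed to 163, 125 and 115 FPKM in the R3-Cntl libraries against 130, 114 and 102 FPKM, and Myh11, Rgs5, Abcc9 and Kcnj8 were at 0.220 FPKM or lower in all 6 libraries. The part of these cells in the Adamts3, Adamts5 and Adamts9 differences was not tested.

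**Figure D5:**
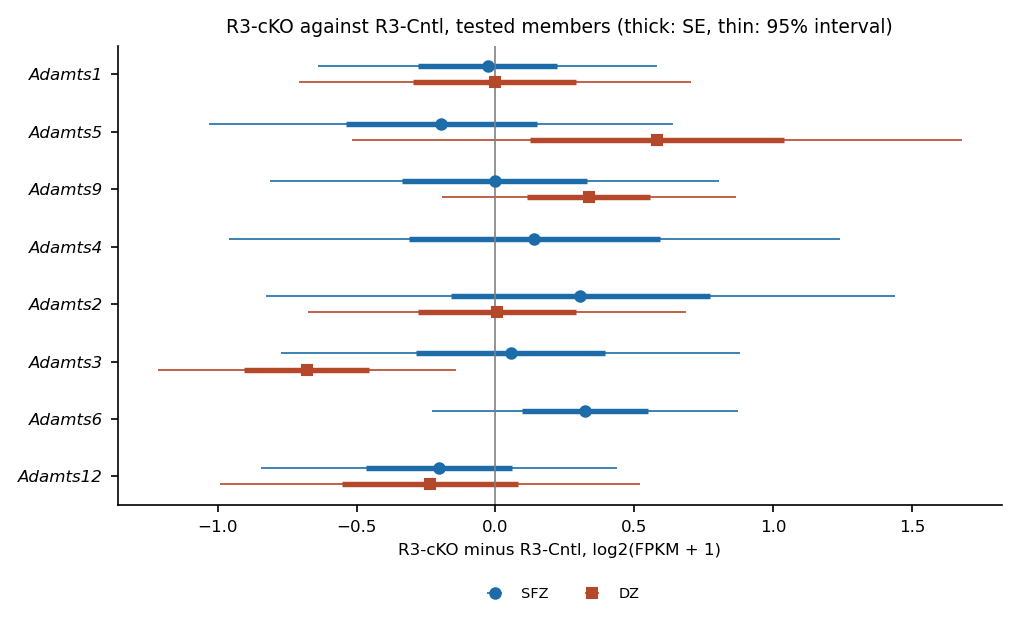
R3-cKO minus R3-Cntl difference in log2(FPKM + 1) (horizontal axis) for the tested members in SFZ (circles) and DZ (squares), with the SE as thick bars and the 95% interval as thin bars, from the model without a block. Each interval covers 0 except that of Adamts3 in DZ (-1.22 to -0.14), and Adamts4 and Adamts6 were tested in SFZ alone.

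The difference of the genotype effect between DZ and SFZ was tested in a model of all 12 libraries. It called 0 of the 8 tested members and 0 (0.00%) of 11765 genes at the adjusted threshold in limma, and 0 members and 0.841% of genes at an unadjusted p under 0.05. With a block that pairs the zones by replicate number within each genotype, a pairing that the R3-Cntl libraries did not meet, it called 1 member, Adamts5 (SE 0.26, unadjusted p = 0.0227, limma adjusted p = 0.603), beside 8.07% of genes, and again 0 at the adjusted threshold. The largest terms on log2(FPKM + 1), DZ minus SFZ, were 0.78 for Adamts5 (SE 0.63, 95% interval -0.61 to 2.17, limma adjusted p = 0.999) and -0.73 for Adamts3 (SE 0.43, 95% interval -1.69 to 0.22, limma adjusted p = 0.999). The Adamts5 term was 0.28 without R3-Cntl DZ replicate 1, 0.46 without R3-Cntl SFZ replicate 2 and 1.16 without R3-Cntl SFZ replicate 1. The Adamts3 term was -0.42 without R3-cKO SFZ replicate 3, and -0.97 without R3-cKO SFZ replicate 2, where it passed the unadjusted threshold. The sex of the mice is not given in the sources used here, and Y-linked transcripts were partly confounded with genotype. The sum of 4 Y-linked genes was at most 0.0600 FPKM in replicates 2 and 3 of R3-cKO in both zones and at least 12.1 FPKM in the other 8 libraries, and its part in the genotype values was not tested.

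The rest of the family and its partners were described from lists. Of 9 other ADAMTS proteases in the table, 4 passed the filter in the zone comparisons and 0 of these differed at an unadjusted p under 0.05 in either genotype. With the replicate block in R3-cKO, Adamts10 was lower in DZ on that basis (difference -0.33, limma adjusted p = 0.127), beside 22.8% of all genes, and Adamts14 higher (difference 0.41, limma adjusted p = 0.0877), beside 7.20%. Their median DZ minus SFZ difference in R3-Cntl was -0.12 on log2(FPKM + 1), against -0.17 over all genes, and -0.01 against 0.01 after size factors. Among them was Adamts14, the remaining procollagen N-proteinase, at 2.40 to 3.28 FPKM in R3-Cntl SFZ and 1.87 to 3.54 FPKM in R3-Cntl DZ (difference 0.00, SE 0.20). The 3 N-proteinases thus stood on different sides of the threshold, with Adamts2 past it and Adamts3 and Adamts14 not. After size factors Adamts2 was at a limma adjusted p of 0.0606, and none of the 3 passed it. The differences among them were not tested. ADAMTS-like proteins, which have the ancillary domains without the protease, had 3 members tested in R3-Cntl, all lower in DZ at an unadjusted p under 0.05, with a median difference of -1.55, where 22.4% of all genes were called lower. Adamtsl3 was 14.4, 29.0 and 22.6 FPKM in SFZ and 3.20, 4.27 and 6.34 FPKM in DZ of R3-Cntl (difference -2.02, SE 0.30, limma adjusted p = 0.0480), and after size factors the difference was -1.85 (limma adjusted p = 0.0606). Adamtsl4, which binds fibrillin microfibrils, differed by -1.55 (SE 0.39, limma adjusted p = 0.0805) and Adamtsl5 by -1.22 (SE 0.33, limma adjusted p = 0.0937). In R3-cKO Adamtsl3 differed by -2.18 (SE 0.26, limma adjusted p = 0.0736, and 0.0293 with the replicate block) and Adamtsl4 by -0.82 (SE 0.29, limma adjusted p = 0.291, and 0.0335 with the block), and after size factors the limma unadjusted p of Adamtsl4 without the block was 0.0549. Adamtsl5 differed there by -0.42 (SE 0.21, limma adjusted p = 0.425, and 0.261 with the block), so that 2 of these 3 were lower at an unadjusted p under 0.05, beside 11.1% of all genes. Adamtsl1 reached 1 FPKM in SFZ alone there and was not counted.

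The genes for substrates of these enzymes differed between zones in both directions. Of the proteoglycans, Acan (aggrecan) was 670, 127 and 243 FPKM in R3-Cntl SFZ and 2046, 1112 and 1339 FPKM in R3-Cntl DZ, a difference of 2.40 on log2(FPKM + 1) (SE 0.59, limma adjusted p = 0.0794). Vcan (versican) was 9.53, 19.5 and 9.59 FPKM against 1.59, 1.84 and 5.34 FPKM, a difference of -1.87 (SE 0.41, limma adjusted p = 0.0675). Adamts5 and Acan thus stood in opposite order between zones, and Adamts5 and Vcan in the same order, without a test of any relation. Of 5 fibrillar procollagen genes, 4 were lower in DZ at an unadjusted p under 0.05 in each genotype and Col2a1 was higher. Of all genes, 22.4% in R3-Cntl and 11.1% in R3-cKO were called lower, and 4.94% and 3.03% higher. Without the block, 0 of the 5 passed the adjusted threshold in limma. With the replicate block in R3-cKO, Col1a1, Col1a2 and Col5a1 passed it (limma adjusted p = 0.0439, 0.0293 and 0.0335), beside 3.11% of all genes. After size factors Col3a1 in R3-cKO no longer passed the unadjusted threshold (limma unadjusted p = 0.0537). The median difference of the 5 was -2.59 in R3-Cntl and -2.08 in R3-cKO. In R3-Cntl the differences were -1.17 for Col5a1 (SE 0.29), -2.59 for Col3a1 (SE 0.74), -3.07 for Col1a2 (SE 0.91) and 1.61 for Col2a1 (SE 0.45). Col1a1 and Col3a1 are also on the fibroblast list. Of 3 further substrates, Fbn1 and Fbn2, the microfibril proteins, were lower in DZ of R3-Cntl at an unadjusted p under 0.05 (-1.40, SE 0.36, and -2.37, SE 0.86, limma adjusted p = 0.0824 and 0.144), and Comp was higher on the same basis (1.29, SE 0.39, limma adjusted p = 0.106).

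Among inhibitors and clearance genes, 5 of 6 were tested, 1 was lower and 1 higher in DZ of R3-Cntl at an unadjusted p under 0.05, where 22.4% of all genes were called lower and 4.94% higher. The median difference was -0.28, and -0.09 after size factors. In R3-cKO it was 0.34, with 3 genes higher and 2 lower in DZ, and 0.47 after size factors. Timp3 was 685 to 1329 FPKM over the 12 libraries. Its zone difference in R3-Cntl was -0.16 (SE 0.24, limma adjusted p = 0.684) and turned to 0.03 after size factors. In R3-cKO it was 0.42 (SE 0.27, limma adjusted p = 0.541), and 0.55 after size factors. In R3-Cntl Timp2 differed by -1.37 (SE 0.39, limma adjusted p = 0.0995), and Sdc4, a surface proteoglycan that binds Adamts5, by 0.48 (SE 0.17, limma adjusted p = 0.132). The clearance receptor Lrp1 differed by -0.28 (SE 0.20, limma adjusted p = 0.377), and by -0.09 after size factors. Of 4 activating proteases, Furin was 23.2 to 39.8 FPKM in all libraries (difference 0.28, SE 0.16), and 1 of the 4, Pcsk7, was lower in DZ at an unadjusted p under 0.05 (-0.46, SE 0.14, limma adjusted p = 0.111), beside 22.4% of all genes. After size factors Pcsk7 differed by -0.29 (unadjusted p = 0.0602) and Furin by 0.47 (unadjusted p = 0.0320). Of 4 procollagen C-proteinases and enhancers, which trim the other end of procollagen, 3 were tested, and Pcolce was lower in DZ at an unadjusted p under 0.05 (-1.37, SE 0.48, limma adjusted p = 0.137), again beside 22.4%. After size factors Pcolce2 was higher in DZ at that threshold (difference 1.10, and 0.90 before, limma unadjusted p = 0.0314 and 0.0526). Between genotypes, each of these lists had 0 genes past the adjusted threshold in limma in either zone, and the ADAMTS-like list had 1 gene at an unadjusted p under 0.05, Adamtsl5 in DZ (difference 1.12, SE 0.28, limma adjusted p = 0.999), beside 3.64% of all genes. With the replicate block in DZ, 11 of the 28 tested genes of these 8 lists passed an unadjusted p of 0.05, beside 16.5% of all genes, and 0 passed the adjusted threshold in limma. Of the 11, 8 were higher in R3-cKO (Adamts10, Adamtsl4, Adamtsl5, Col3a1, Timp1, Timp2, Lrp1 and Pcolce) and 3 lower (Acan, Pcsk5 and Pcolce2).

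The genes with the level pattern most like a member's were found by the mean absolute difference of centred log2(FPKM + 1) over the 12 libraries, among 11358 genes. For Adamts5 they were Dpysl3 (0.239), Lurap1l (0.277) and Serpinb1a (0.280). For Adamts2 they were Sord (0.214), Man1c1 (0.218) and Rbms3 (0.237). Zone, genotype and library are shared by all of these values.

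On the mm9 genome the members are spread over 8 chromosomes, and 2 pairs are neighbours. Adamts1 (chr16:85794072-85803358) and Adamts5 (chr16:85858415-85901370) lie on the minus strand with 55056 bases between them, and yet their zone differences in R3-Cntl were -0.71 and -2.75. Adamts15 (chr9:30706740-30730037, minus strand) and Adamts8 (chr9:30750147-30771423, plus strand) are 20109 bases apart and were both under 1 FPKM in all but 1 library. Adamts2 (chr11:50415586-50621075) and Adamts3 (chr5:90102866-90312359) lie apart from these pairs and from each other.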

How the data were processed

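Libraries of SFZ and DZ chondrocytes (12, 3 a group) were sequenced as 100-bp paired-end reads, and the submitters' processing notes name Bowtie 0.12.2 and mm9. The authors deposited 1 value a gene, which was treated as FPKM. The unit was inferred, because the values times transcript length summed to nearly one total in every library, within 0.673% of it. Although the name of the table points to TMM scaling, no scaling between libraries was visible, and counts and depth are unknown. All 12 columns were matched to samples by title and 0 were left unmapped. Members were found by symbol. The members and gene lists were chosen with earlier results of these data known.

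Values were analysed as log2(FPKM + 1) in R 4.3.3 with limma 3.58.1 (empirical Bayes with a mean-variance trend), on genes that reached 1 FPKM in 3 or more compared libraries, with 1 term for zone or genotype and Benjamini-Hochberg adjustment. Single values were compared by exact two-sided permutation tests. The code was tested on simulated data. The text names every member, and of each list the genes with the smallest unadjusted p for zone in R3-Cntl, up to 4. Genes named beyond these (Runx3, Prg4, Pi16, Tnmd, Dpt, Dcn, Scx, Tnc, mural and deep zone markers, Adamtsl1, Adamts14, Timp3, Furin, list genes called between genotypes in DZ and the members of the most-alike list) are checks, roles or list members chosen after values were seen.

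Replicate numbers were taken to pair libraries where each same-numbered pair of deviations from group means correlated above 0.1. This held between genotypes in DZ (0.65, 0.78 and 0.69) and between zones in R3-cKO (0.42, 0.78 and 0.65). These correlations come from the values that were then tested, and the labels do not give a pairing. The alternatives were no filter, a filter at a mean of 10 FPKM, a pseudocount of 0.1 or 5, size factors by median of ratios, quantile-normalized values, 1 model of all 12 libraries, the replicate block and leaving out each library. Leaving out same-numbered DZ pairs with the block was added after the data were seen. Coordinates are mm9 (GENCODE) for genes and GRCm38.p6 (RefSeq) for promoter windows, and the 2 were not mixed.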

Additional observations from a re-analysis of the deposited data

How the results depend on the processing

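For zone in R3-Cntl, 1 member passed the adjusted threshold, and this count was 0 with no filter, a mean of at least 10 FPKM, a pseudocount of 0.1 or 5, quantile normalization or size factors, 2 with all 12 libraries in 1 model, 3 with the replicate block and 0 to 2 when each library was left out. The count over all genes, 140, became 0 with no filter, 8 with the filter at 10 FPKM, 88 and 29 with pseudocounts of 0.1 and 5, 1 with quantile normalization, 17 with size factors, 798 in 1 model, 831 with the replicate block, and 0 to 505 with a library left out. For zone in R3-cKO, 0 members became 1 in 1 model and 3 with the block, and the 2 genes overall became 7 with no filter, 0 with the filter at 10 FPKM, 1 with either pseudocount, 165 in 1 model, 352 with the block and 0 to 5 with a library left out. The replicate block was not used as a pairing for zone in R3-Cntl (correlations 0.58, 0.11 and -0.15) or genotype in SFZ (0.79, -0.09 and -0.42). In the latter it gave 0 members and 0 genes. Some libraries of unlike number correlated more. R3-Cntl SFZ replicate 3 did so with replicate 2 of R3-Cntl DZ (0.58) and of R3-cKO SFZ (0.69). R3-Cntl SFZ replicate 2 did so with replicate 3 of R3-Cntl DZ (0.38) and of R3-cKO SFZ (0.45). A pairing across numbers was not modelled.

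Some log2 differences of members changed sign. Adamts9 for zone in R3-cKO became 0.035 with quantile normalization and 0.025 with size factors, and Adamts9 for genotype in SFZ became 0.024 and 0.0061. For genotype in DZ, Adamts1 became 0.0050 with a pseudocount of 5, and Adamts2 became -0.0030 with a pseudocount of 5, -0.078 with quantile normalization and -0.024 with size factors. With the replicate block and a same-numbered pair left out, an alternative chosen after seeing the data, Adamts2 for genotype in DZ became -0.073 without pair 1 (range over pairs -0.073 to 0.050) and Adamts1 became 0.12 without pair 3 (-0.087 to 0.12). For the interaction, Adamts1 became -0.069 with quantile normalization and -0.035 with size factors, and Adamts12 became 0.00997 with a pseudocount of 5. With single libraries left out, signs changed for Adamts9 for zone in R3-cKO (-0.34 to 0.16). For genotype in SFZ they changed for Adamts1 (-0.19 to 0.21), Adamts2 (-0.066 to 0.80), Adamts3 (-0.26 to 0.29), Adamts4 (-0.27 to 0.53), Adamts5 (-0.58 to 0.12), Adamts9 (-0.26 to 0.27) and Adamts12 (-0.36 to 0.082). For genotype in DZ they changed for Adamts1 (-0.27 to 0.26) and Adamts2 (-0.24 to 0.22). For the interaction they changed for Adamts1 (-0.24 to 0.28), Adamts2 (-0.80 to 0.070), Adamts4 (-0.74 to 0.13) and Adamts12 (-0.36 to 0.26). The zone differences of Adamts2 and Adamts5 kept their sign in both genotypes under each alternative run. The cause of these changes was not tested. A member that a stricter filter or a left-out library removed has no value under that setting. Depth is unknown, so counting error at low FPKM could not be given.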
